A study of Mus musculus with 14 samples.

Results

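The genes described here encode 9 secreted proteases of the ADAMTS family, Adamts1, Adamts2, Adamts3, Adamts4, Adamts5, Adamts9, Adamts10, Adamts12 and Adamts14, together with Ccbe1, which encodes a secreted partner of ADAMTS3. They were picked by name. All 10 are among the 15894 genes of the deposited expression table. Their RNA was measured in the dissected epicardium and subepicardium, the outer layers of the heart, of mouse embryos at E16.5. The table holds 3 ventral and 3 dorsal libraries from female hearts (numbers 1 to 3), and 4 ventral (numbers 4 to 7) and 3 dorsal (numbers 4 to 6) libraries from male hearts. Each library was made from poly(A) RNA of 2 hearts pooled by pairs, with embryos from at least 3 litters, and none of the embryos was treated. The labels give the genotype Tbx18Cre for every library, a Cre driven from an epicardial gene, whereas the study speaks of wild type hearts, so ventral and dorsal samples of a sex share that allele and differ in side. A further male library, number 7, is called dorsal in one label and ventral in another, and was kept out of the comparisons.

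ADAMTS proteins are zinc proteases that act on the extracellular matrix after secretion. ADAMTS2, ADAMTS3 and ADAMTS14 are the procollagen N-proteinases, which trim the amino-terminal propeptide of fibrillar procollagens. ADAMTS3 also cleaves the precursor of VEGFC, the main growth factor of lymphatic vessels, on a complex organised by CCBE1, and the mature factor then activates the receptor VEGFR3 on lymphatic endothelium. ADAMTS1, ADAMTS4, ADAMTS5 and ADAMTS9 cleave large proteoglycans such as versican and aggrecan, ADAMTS10 binds fibrillin microfibrils, and ADAMTS12 cleaves cartilage oligomeric matrix protein.

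Each library carried 13.9 to 25.2 M reads on the listed genes. Values are normalized CPM, and 3 reads, taken as the floor of detection, were worth 0.116 to 0.217. A library with no read of a gene still carries a small value above 0, because an offset of 0.5 reads was built into the table. The epicardial markers (10 genes, Wt1 and Tbx18 among them) were detected in every library, and so were the ventricular cardiomyocyte markers, whose summed level was 17489 to 47493, so the dissected layer carried RNA of myocardium too. Atrial markers (4 genes) summed to 12455 in female dorsal library 1 and to at most 1992 in the other 12 libraries of settled region.

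In female hearts, 5 of the 10 genes rose ventrally (Adamts2, Adamts5, Adamts9, Adamts10 and Adamts14) and 1 was lower there (Adamts3). Of all 14411 genes tested, 14.5% passed as ventrally higher and 13.3% as dorsally higher. The median log2 change of the 10 genes, ventral minus dorsal, was 1.17, beside 0.01 over all genes tested, and 9 of the 10 were above 0. Changes are on the log2 scale of the value plus 1, which understates the change of genes with low values, and a gene was called when its limma adjusted p over all genes was under 0.05. In bulk RNA of this kind, fewer cells of a type and less RNA per cell cannot be told apart. Every ventral female library was above every dorsal one for 6 genes, the 5 above and Adamts12, where 23.2% of all genes did so, and the opposite held for Adamts3 alone, where 21.6% of all genes did so. The count of 6 called genes fell to 2 without female dorsal library 2 (Adamts2 and Adamts9), without female ventral library 2 (Adamts5 and Adamts9) and after each library's trend on GC content and gene length was removed (Adamts5 and Adamts9). Of all genes, in either direction, those fits called 2291 of 14203, 2158 of 13984 and 3455 of 14398, in that order. The main fit called 4007 of 14411.

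**Figure D1:**
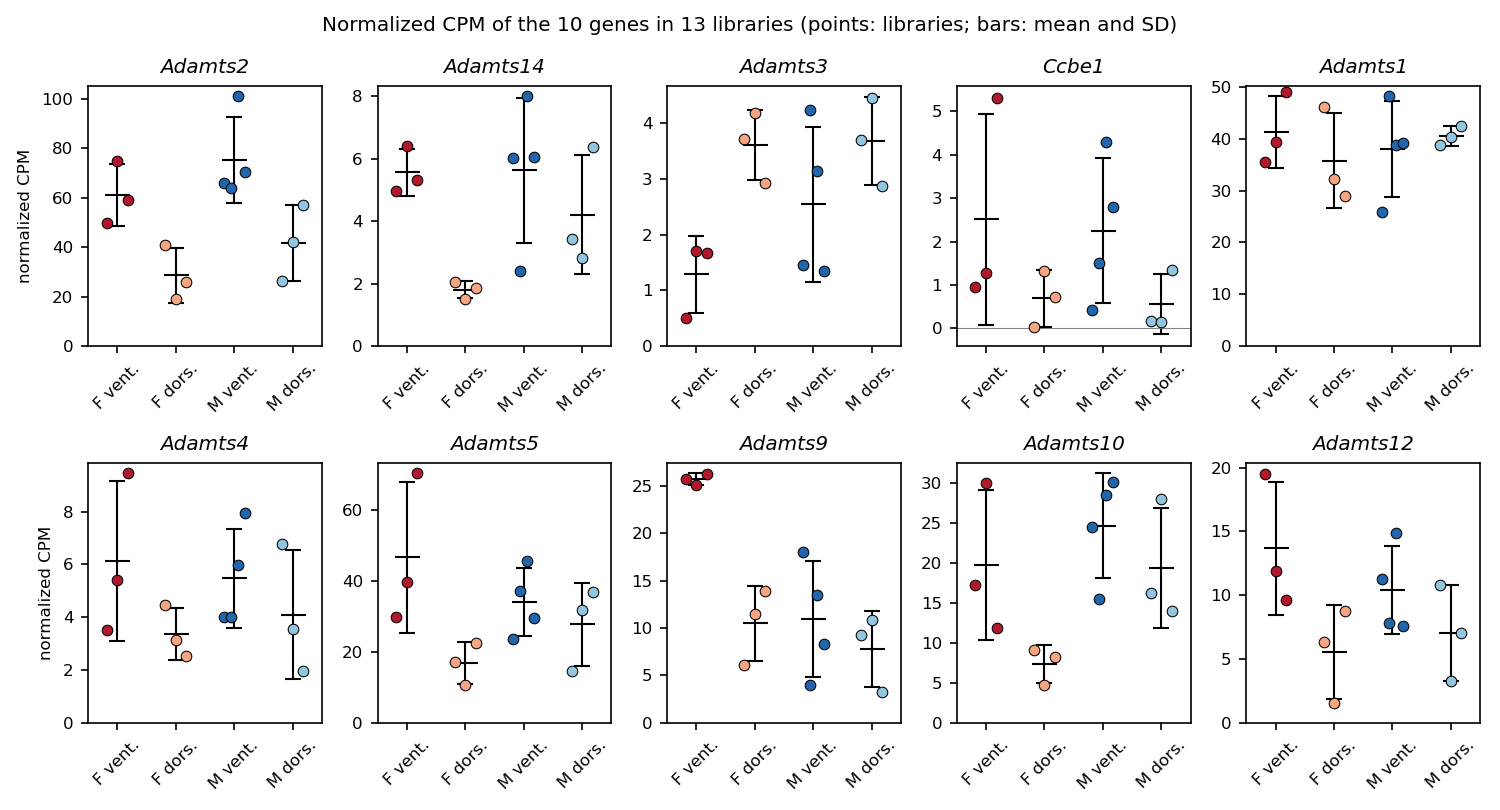
Normalized CPM (vertical axes, 1 scale per gene) of the 10 genes in female (F) and male (M) ventral and dorsal libraries, with points for libraries and bars for mean and SD (n = 3, 3, 4 and 3). Adamts2 is the gene whose ventral points stand above the dorsal ones in both sexes, while Adamts1 has overlapping points throughout.

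The procollagen N-proteinases come first. Adamts2 (chr11:50602084-50807573, plus strand, GRCm38) stood at 49.8, 74.7 and 59.1 in female ventral libraries 1 to 3, and at 40.8, 19.1 and 26 in the dorsal ones. In male hearts it stood at 66, 63.9, 101 and 70.5 ventrally (numbers 4 to 7) and at 26.3, 42.1 and 56.9 dorsally (numbers 4 to 6). Ventral and dorsal libraries did not overlap in either sex. The log2 change was 1.12 in females (SE 0.263, adjusted p = 0.0132, but 0.0624 without female ventral library 2 and 0.0656 after removal of the GC and length trend) and 0.88 in males (SE 0.259, adjusted p = 0.285). Blocking on the replicate number gave a male change of 0.90 with an adjusted p of 0.0304 (0.0783 when the GC and length trend was removed as well), and 0.509% of all genes were called in that fit. Over both sexes, with sex as a covariate, it was 0.99 (SE 0.2, adjusted p = 0.00793). Adamts2 was the only one of the 10 called there, against 9.80% of all 15772 genes called higher ventrally and 9.06% dorsally, and it kept its call in all 25 alternatives. Without male dorsal library 6 or male ventral library 5 the count was 5 in place of 1, with Adamts3 and Adamts14 among them both times. Of all genes, those fits called 3186 of 15691 and 3646 of 15681.

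Adamts14 (chr10:61197112-61273438, minus strand) was the least abundant of the 3 genes per kb of exon in all 3 female dorsal libraries. It stood at 4.98, 6.4 and 5.31 in the female ventral libraries and at 2.06, 1.5 and 1.87 in the dorsal ones, so that the groups were well apart. The change was 1.22 (SE 0.292, adjusted p = 0.0138, but 0.054 without dorsal library 2, 0.0538 without ventral library 2 and 0.0509 after removal of the GC and length trend). Male ventral libraries held 6.01, 2.42, 8 and 6.06 and male dorsal ones 3.43, 2.81 and 6.38. These overlapped, because ventral library 5 was the lowest of all 7 and dorsal library 6 was above 3 of the 4 ventral ones. The male change was 0.32 (SE 0.404, adjusted p = 0.734).

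Adamts3 (chr5:89677087-89883334, minus strand) went the other way, and at low counts. Female ventral libraries held 0.496, 1.7 and 1.67, from 9 to 28 reads, and dorsal ones 3.72, 4.17 and 2.92, from 58 to 80 reads. Each dorsal library was above each ventral one. The log2 change was -1.05 (SE 0.35) with an adjusted p of 0.0494, just inside the threshold. The call was lost in all 6 fits that left out 1 library (adjusted p from 0.0615 to 0.147) and held in 4 of 15 alternatives, although the change stayed between -1.56 and -0.77. Male ventral libraries held 1.46, 4.23, 3.13 and 1.34 and dorsal ones 3.7, 4.45 and 2.87, with ventral library 5 among the highest and the groups overlapping. The male change was -0.47 (SE 0.377, adjusted p = 0.583), and that over both sexes was -0.74 (SE 0.259, adjusted p = 0.0569).

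Because these 3 genes differ in length, their levels were compared per kb of exon. Adamts2 took most of their summed level in every library. Its share was 83.3% ± 0.619 in female ventral and 83.9% ± 0.614 in male ventral tissue (SD, n = 3 and 4), and 73.9% ± 7.24 and 74.1% ± 5.5 in female and male dorsal tissue (n = 3 each). The ventral shares lay between 82.6% and 84.6% and the dorsal ones between 66% and 80.2%, so the ranges did not meet. Adamts3 took 2.91% ± 1.33 in female ventral and 17.3% ± 6.5 in female dorsal tissue, and 5% ± 3.17 and 12.4% ± 5.02 in male ventral and dorsal tissue. The male ranges for Adamts3 met, with 9.62% in ventral library 5 and 6.73% in dorsal library 6. Shares are given as a description, without a test. The shares of the 3 genes in a library add up to 100%, so they are not independent of each other.

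**Figure D2:**
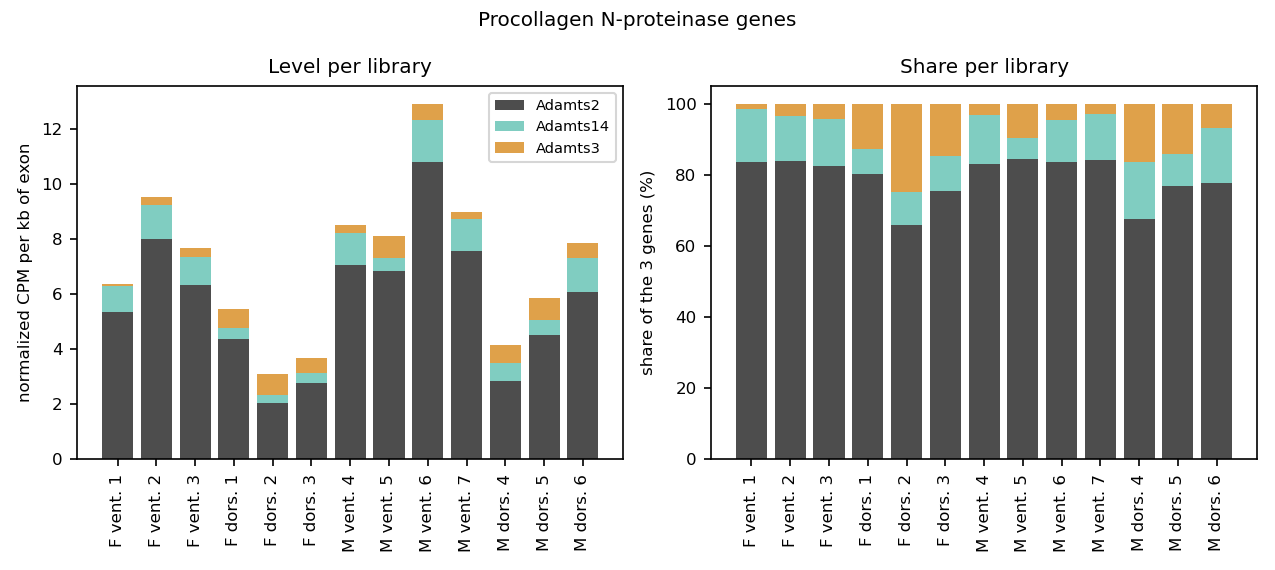
Levels in normalized CPM per kb of exon (left, stacked) and shares in percent (right) of the 3 procollagen N-proteinase genes in each of the 13 libraries. Adamts2 takes between 82.6% and 84.6% in the ventral bars, and the Adamts3 segment is widest in female dorsal library 2, at 24.7%.

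The sequences just before the start of these 3 genes are shown as a description. They are the 250 bases upstream of the RefSeq start (GRCm38.p6), written 5′ to 3′ on the strand of the gene. Capitals mark the GC box GGGCGG or its reverse complement CCGCCC, the core of the sites that SP1 family factors recognise.
Adamts2, chr11:50601835-50602084, plus strand: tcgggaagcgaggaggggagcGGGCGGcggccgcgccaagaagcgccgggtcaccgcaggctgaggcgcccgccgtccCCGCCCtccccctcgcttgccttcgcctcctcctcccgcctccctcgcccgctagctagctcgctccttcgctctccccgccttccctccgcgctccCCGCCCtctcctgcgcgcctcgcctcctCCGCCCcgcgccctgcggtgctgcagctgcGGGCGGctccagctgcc
Adamts14, chr10:61273420-61273669, minus strand: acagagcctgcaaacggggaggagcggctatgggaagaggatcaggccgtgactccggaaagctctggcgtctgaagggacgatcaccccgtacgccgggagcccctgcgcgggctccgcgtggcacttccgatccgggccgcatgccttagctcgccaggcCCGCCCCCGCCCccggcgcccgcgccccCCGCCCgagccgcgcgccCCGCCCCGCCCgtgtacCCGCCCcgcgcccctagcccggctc
Adamts3, chr5:89883335-89883584, minus strand: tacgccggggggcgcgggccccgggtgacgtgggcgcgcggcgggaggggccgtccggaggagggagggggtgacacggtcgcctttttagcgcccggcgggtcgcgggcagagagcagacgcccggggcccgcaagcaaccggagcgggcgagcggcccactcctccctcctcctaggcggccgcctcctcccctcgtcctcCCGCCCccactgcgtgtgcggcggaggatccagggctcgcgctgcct

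The Adamts2 window held 5 GC boxes, the Adamts14 window 6, of which 1 pair overlaps by a base, and the Adamts3 window 1. At least 1 GC box on either strand was present in 32.7% of 32851 promoter windows of the same length, whatever their GC content. That share is no reference for the number of boxes in a window rich in G and C. All 3 windows were rich in G and C, at 78%, 76.4% and 78%, beside a median of 52.4% over all windows. Searches on both strands also covered the TEAD motif GGAATG, which 12.6% of the windows held. The CCAAT box was found in 33.8% of them. The GATA motif was searched as AGATAA and was present in 9.99%. The E-box was searched as CAGCTG, which reads the same on both strands, and was present in 13% of windows. None of these 4 was found in the Adamts14 and Adamts3 windows, and the Adamts2 window held 2 of the E-boxes. Promoter windows were matched for 6 of the 10 genes, and those of Adamts1, Adamts9 and Adamts12 held 3, 1 and 0 GC boxes. Of these, Adamts9 was called higher ventrally in females, and Adamts1 and Adamts12 were not called. A match is a run of letters and does not show that a factor binds there. Any link of these motifs to the regional changes was not tested.

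Ccbe1 (chr18:66045302-66302741, minus strand), the partner of ADAMTS3, was near the floor in part of the libraries. It stood at 0.965, 1.27 and 5.31 in female ventral libraries and at 0.0231, 1.33 and 0.724 in dorsal ones, the first of these being a library with 0 reads. Male ventral libraries held 0.435, 1.5, 4.29 and 2.79 and dorsal ones 0.167, 0.144 and 1.35, of which the first 2 rest on 2 and 3 reads. The groups overlapped in both sexes, with the highest values in ventral libraries (female 3 and male 6). The log2 change was 0.92 in females (95% interval -0.20 to 2.05, adjusted p = 0.197) and 0.99 in males (-0.10 to 2.08, adjusted p = 0.394). Over both sexes it was 0.96 (SE 0.36, adjusted p = 0.0727). Within libraries of the same number, Ccbe1 was higher ventrally in 5 of 6 and Adamts3 in 1 of 6. They went opposite ways in numbers 1, 3, 4 and 5, and the same way in numbers 2 and 6. In number 5 the log2 difference of Adamts3 was -0.06, and in numbers 1, 4 and 5 the dorsal Ccbe1 value rested on 0, 2 and 3 reads.

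In the proteoglycan-cleaving group, Adamts5 and Adamts9 were called in females and Adamts1 and Adamts4 were not. Adamts5 (chr16:85856173-85901828, minus strand), an aggrecanase, stood at 29.8, 39.7 and 70.5 in female ventral libraries and at 17.2, 10.7 and 22.6 in dorsal ones. The groups did not overlap, and the change was 1.38 (SE 0.337, adjusted p = 0.015, but 0.0503 without dorsal library 2). Male values were 23.5, 37.3, 45.6 and 29.5 ventrally and 14.6, 31.8 and 36.8 dorsally. They overlapped, with a change of 0.34 (SE 0.325, adjusted p = 0.649). Adamts5 was higher in the ventral library in all 6 pairs of the same number, by 0.22 to 1.80. For this and the other pair counts of these genes, the share over all genes was not computed. The change of Adamts5 over both sexes went from 0.83 (adjusted p = 0.0547) to 0.89 (adjusted p = 0.0292) when libraries were blocked by number.

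Adamts9 (chr6:92772699-92943492, minus strand) cleaves versican and aggrecan and is essential for embryonic development. The female ventral libraries held 25.8, 25.1 and 26.3, a spread of 2.45% of their mean, and the dorsal ones 6.12, 11.5 and 13.9. No dorsal library came near the ventral ones. The change was 1.28 (SE 0.282, adjusted p = 0.00959), the smallest adjusted p among the 10 genes in females, and it held in all 16 alternatives. Male ventral libraries held 18, 3.99, 13.5 and 8.27 and dorsal ones 9.23, 10.8 and 3.2. They were spread over each other and below the female ventral ones, with a change of 0.42 (SE 0.505, adjusted p = 0.726). Exons of 2 listed genes on the opposite strand, A730049H05Rik and Gm15737, overlap exons of Adamts9, and since the sources do not say whether reads were assigned by strand, its values may hold reads of these.

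Adamts1 (chr16:85793827-85803113, minus strand) and Adamts4 (chr1:171250421-171260637, plus strand) were not called. Adamts1, which lies beside Adamts5 on the same chromosome, ranged from 35.6 to 49 in female ventral, 28.9 to 46.1 in female dorsal, 25.8 to 48.3 in male ventral and 38.8 to 42.5 in male dorsal libraries. Its ventral library was the higher one in 3 of 6 pairs. Its log2 change was 0.22 in females (95% interval -0.25 to 0.69, adjusted p = 0.464) and -0.12 in males (-0.59 to 0.35, adjusted p = 0.818), so a change of the size seen for Adamts5 in females lies outside both intervals. Adamts4 ranged from 3.52 to 9.47 and from 2.52 to 4.46 in female ventral and dorsal libraries, and from 3.99 to 7.93 and from 1.97 to 6.77 in the male ones. Its changes were 0.64 (-0.19 to 1.47, adjusted p = 0.223) and 0.41 (-0.47 to 1.29, adjusted p = 0.647). The female interval includes the female changes of Adamts5 (1.38) and Adamts9 (1.28), so Adamts4 was not shown to differ from them.

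The last 2 genes belong to other branches of the family. Adamts10 (chr17:33524204-33553782, plus strand) stood at 17.3, 30.1 and 11.9 in female ventral libraries and at 9.17, 4.66 and 8.21 in dorsal ones. The groups did not overlap, although ventral library 3 came close to the dorsal ones. The change was 1.27 (SE 0.361, adjusted p = 0.0281, but 0.0947 without dorsal library 2, 0.106 without ventral library 2 and 0.0502 after removal of the GC and length trend). Male ventral libraries held 24.5, 15.5, 28.6 and 30.2 and male dorsal ones 16.2, 28 and 14, which overlapped, and the male change was 0.35 (SE 0.299, adjusted p = 0.605).

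Adamts12 (chr15:11064790-11349231, plus strand) stood at 19.5, 11.9 and 9.59 in female ventral libraries and at 6.35, 1.55 and 8.76 in dorsal ones. The groups did not overlap but came close, at 9.59 and 8.76, and the change of 1.31 (SE 0.483) missed the threshold at an adjusted p of 0.0685. Blocking on the number brought the adjusted p to 0.0296, or 0.0936 when the GC and length trend was removed as well. Male libraries ranged from 7.59 to 14.9 ventrally and from 3.26 to 10.8 dorsally, with a change of 0.58 (SE 0.39, adjusted p = 0.511). Over both sexes the change was 0.92 (adjusted p = 0.0688), and blocking gave 1 with an adjusted p of 0.0464 (0.0821 with the trend removed as well). The ventral library was the higher one in 6 of 6 pairs, without a share over all genes to set beside it.

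**Figure D3:**
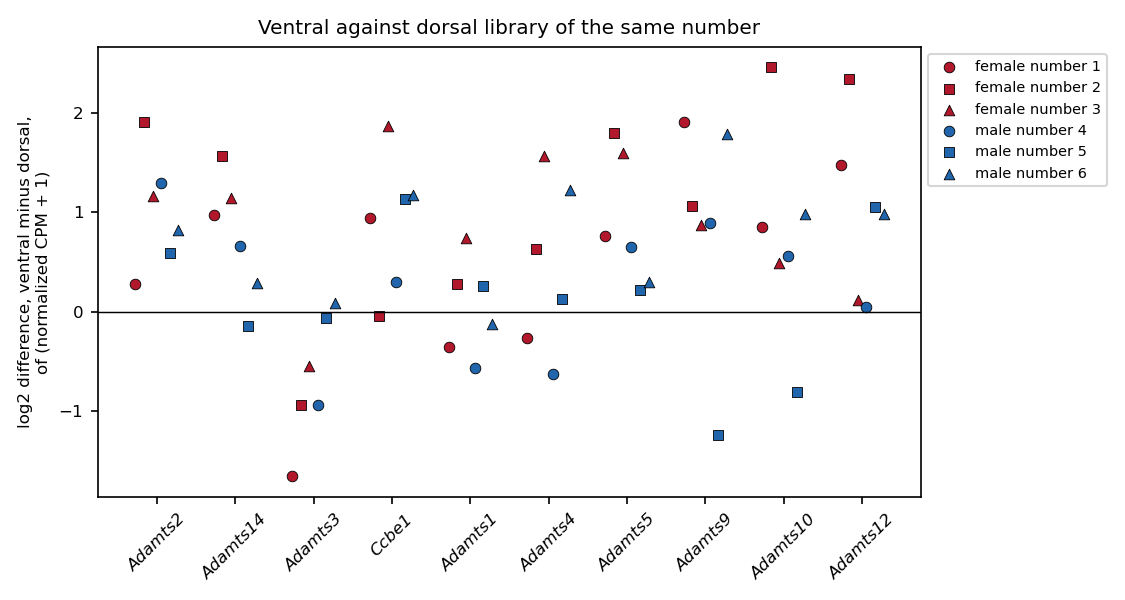
Log2 difference of (normalized CPM + 1), ventral minus dorsal, between the libraries of the same number, for each gene (points: numbers 1 to 3 female, 4 to 6 male). Adamts2, Adamts5 and Adamts12 lie above 0 in all 6 pairs, and Adamts3 lies at or below 0.09 in all of them. The share of all genes above 0 in all 6 pairs was not computed.

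None of the 10 genes was called in the male hearts, and 1 of them (Adamts2) had an unadjusted p under 0.05. The same fit called 0% of all 14917 genes (0 genes, with 2083 at an unadjusted p under 0.05), and the edgeR count test called 0 of the 10 as well. The median log2 change of the 10 was 0.38, beside 0.03 over all genes, and 8 were above 0. Adamts2 was the 1 gene with every ventral male library above every dorsal one, as were 6.18% of all genes, and none had all dorsal libraries on top, as 7.82% of all genes did.

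**Figure D4:**
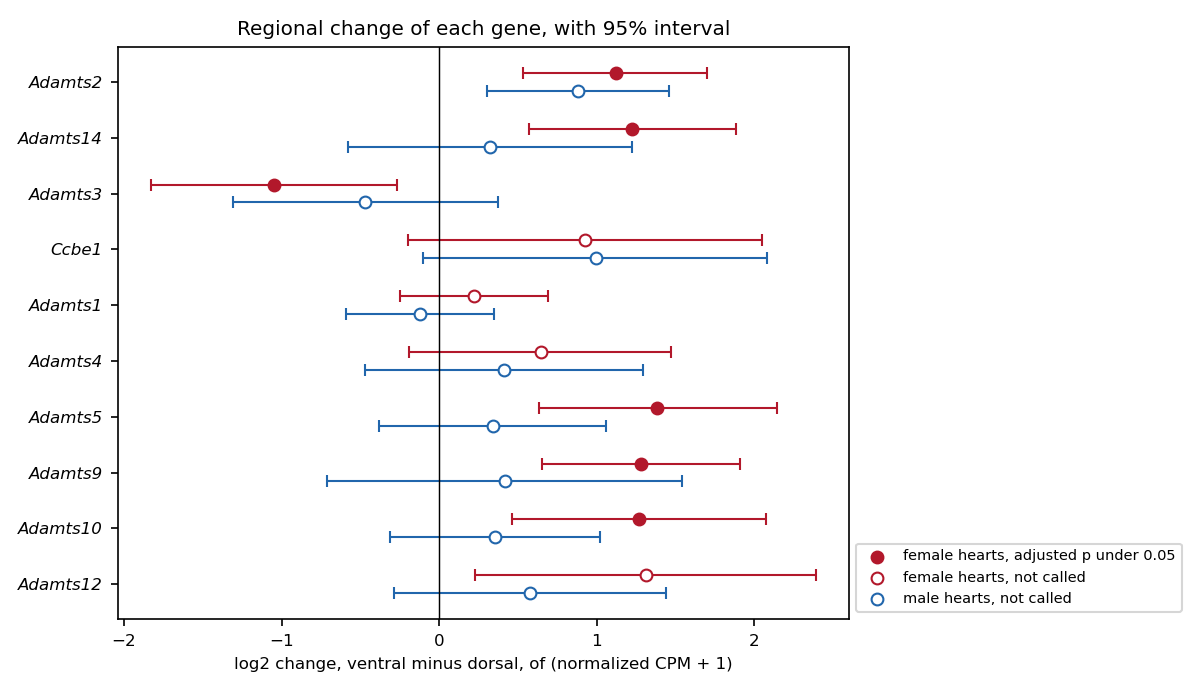
Log2 change of (normalized CPM + 1), ventral minus dorsal (horizontal axis), with its 95% interval for each gene in female and male hearts (limma). Filled points are called at an adjusted p under 0.05, which 6 female and 0 male points are, and the male point lies nearer to 0 than the female one for 9 of the 10 genes.

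The regional change itself was then compared between the sexes. For 8 of the 10 genes the male change minus the female change was below 0 (median -0.54, beside -0.02 over all genes). None was called, where 2.73% of all genes were, and the edgeR count test called 0 of the 10 and 380 of all 15772 genes. None had an unadjusted limma p under 0.05, while 2428 of all genes did. The largest differences were -1.05 for Adamts5 (95% interval -2.15 to 0.06), -0.91 for Adamts10 (-1.98 to 0.15) and -0.90 for Adamts14 (-1.99 to 0.18). Thus no regional change of these genes was shown to differ between the sexes, and the intervals are wide.

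Between the sexes, over both regions, none of the 10 was called, while 4.40% of all genes passed as male-higher and 6.54% as female-higher. The edgeR count test called 0 of them and 1540 of all 15772 genes. An unadjusted limma p under 0.05 was seen for 2 of the 10 and for 4030 of all 15772 genes. The 2 were Adamts9, with a male minus female log2 change of -0.92 (SE 0.334, adjusted p = 0.0899), and Adamts10, with one of 0.79 (SE 0.27, adjusted p = 0.0749). In Adamts9 all 4 male ventral libraries (3.99 to 18) were below all 3 female ventral ones. Male and female libraries are separate series in their titles, so sex and series cannot be told apart. Epicardial markers were also higher in males, with 5 of 10 called (Wt1, Upk3b, Msln, Krt19 and Tcf21) and a median log2 change of 1.04 over the list, and their part in these values was not tested.

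Levels were ranked per kb of exon within each group. Adamts1 and Adamts2 were the most abundant 2 in all 4 groups, at 7.8 ± 1.3 and 6.56 ± 1.35 normalized CPM per kb in female ventral tissue (SD, n = 3), where their ranges overlapped. In female dorsal tissue they were apart, at 6.75 ± 1.72 and 3.07 ± 1.19. Adamts5 and Adamts10 held ranks 3 and 4 in all 4 groups, with overlapping ranges, at 4.32 ± 1.97 and 2.4 ± 1.13 in female ventral and 2.57 ± 1.08 and 2.35 ± 0.915 in male dorsal tissue. Ccbe1 had the lowest mean in all 4, with a range that overlapped that of Adamts3 in both ventral groups, from 0.0511 ± 0.0638 in male dorsal to 0.232 ± 0.224 in female ventral tissue. Adamts3 held rank 9 in both ventral groups and rank 7 in both dorsal ones, where its range overlapped that of Adamts12, the next in order.

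The markers of several cell types moved in female hearts along with these genes. Epicardial markers summed to 1749 to 2788 ventrally and 339.8 to 640.2 dorsally, and 9 of 10 were called higher ventrally. Fibroblast markers summed to 8972 to 16346 and 2570 to 4218 (5 of 8 called higher), lymphatic endothelial markers to 395 to 1960 and 148 to 289.6 (4 of 6) and macrophage markers to 129.9 to 262 and 44.6 to 79.5 (5 of 6). Smooth muscle and pericyte markers summed to 745 to 1151 ventrally and 1269 to 1575 dorsally (3 of 6 called lower and 1 higher). Of the blood endothelial markers 0 of 6 were called. Ventricular cardiomyocyte markers had changes below 0 for 8 of 10, yet the 2 called, Ttn and Ryr2, were higher ventrally. Of the 4 atrial and 4 erythroid markers tested, 1 of each was called lower (Nppa and Alas2). In male hearts the summed epicardial level was 2055 to 5999 ventrally and 1584 to 4291 dorsally, and no marker of these lists was called. The part of these cell types in the changes of the 10 genes was not tested. Female dorsal library 1 held the highest sum of atrial markers. Without it, the same 5 genes were called higher ventrally, as were 1660 of all 14114 genes, and Adamts3 was not called (change -1.03).

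The partners and substrates of these proteases were taken from lists of the pathway. In females 14.5% of all genes tested were called higher ventrally and 13.3% higher dorsally, beside which the counts of each list stand. Of the 6 lymphatic growth factors and receptors, 4 rose ventrally in females and 0 fell (median log2 change 1.23). Vegfc, the substrate of ADAMTS3, was 23.1 ± 3.89 ventrally and 8.66 ± 1.18 dorsally (SD, n = 3, change 1.31, adjusted p = 0.00356), the side on which Adamts3 was low. Flt4, which encodes VEGFR3, and its coreceptor gene Nrp2 rose by 1.14 and 1.10, and Svep1, a matrix protein gene needed for lymphatic development, by 2.20 (adjusted p = 0.0255, 0.0112 and 0.0128). Vegfd changed by 1.68 with an adjusted p of 0.0698, or 0.00875 with the replicate block. In males no gene of this list was called, and Vegfc changed by 0.38 (adjusted p = 0.654).

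A list of 7 other protease genes in the processing of VEGFC or VEGFD included plasminogen activators. The plasminogen gene Plg was not in the expression table, and 6 were tested. In females 3 were called higher ventrally and 0 lower, where 14.5% and 13.3% of all genes were. These were Furin, a proprotein convertase that also matures ADAMTS proteins, at 52.4 ± 9.67 and 27.7 ± 7.25 (change 0.91, adjusted p = 0.0147), Pcsk5, another convertase (1.65, adjusted p = 0.0191), and Plat, the tissue plasminogen activator (0.61, adjusted p = 0.0204). Among 3 genes of ADAMTS maturation, Pcsk6 (2.10, adjusted p = 0.00678) and Pofut2, which puts fucose on thrombospondin repeats (0.52, adjusted p = 0.0405), were called higher and B3glct was not (0.23, adjusted p = 0.392).

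All 5 procollagen genes tested, the substrates of ADAMTS2, ADAMTS3 and ADAMTS14, rose ventrally in females, with a median log2 change of 2.35. Col1a1 stood at 5434 ± 1678 ventrally and 970.4 ± 255 dorsally (change 2.46, adjusted p = 0.000823), and Col1a2, Col3a1, Col5a1 and Col5a2 rose by 2.79, 2.35, 1.97 and 2.12. All 5 were also called over both sexes (median 1.44) and none in males alone (median 0.68). Col1a1 and Col3a1 are fibroblast markers too. Of the fibrillins, Fbn1 rose by 1.60 (adjusted p = 0.00691) and Fbn2 changed by 0.88 (adjusted p = 0.0992, or 0.0256 with the replicate block), and over both sexes both were called (1.08 and 0.73). The proteoglycan substrate Vcan, which encodes versican, was not called: it stood at 34.4 ± 7.42 and 37.4 ± 26.2 in females, with a change of 0.07 (SE 0.38, adjusted p = 0.914), and neither of the other 2 tested genes of its list was called.

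Among 6 inhibitors and clearance genes, Timp1, Timp2 and Lrp1 were called higher ventrally in females, by 1.26, 1.10 and 1.79, and none lower. Lrp1, an endocytic receptor that clears ADAMTS4 and ADAMTS5, stood at 58.8 ± 12.7 and 16.2 ± 2.98 (adjusted p = 0.00081). Timp3, the TIMP that inhibits ADAMTS4 and ADAMTS5 best, stood at 334 ± 49 and 342 ± 93.8, with a change of -0.01 (SE 0.202, adjusted p = 0.979). All 3 called genes were also called over both sexes, Timp1 with an adjusted p of 0.0467 that became 0.0639 with the replicate block.

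Other genes of the family were read beside the 10. Of 6 tested, Adamts8 (1.91, adjusted p = 0.0425) and Adamts15 (1.21, adjusted p = 0.00736) were called higher ventrally in females. Adamts20 changed by 1.13 there (adjusted p = 0.0521, or 0.0297 with the replicate block), and over both sexes all of these 3 were called, by 1.73, 0.97 and 0.95. Of the 6 ADAMTS-like genes, whose proteins lack the protease domain, Adamtsl1 (1.34) and Adamtsl5 (0.90) were called higher in females (adjusted p = 0.0156 and 0.0351). Adamtsl3 was called lower ventrally over both sexes, at -0.77 (adjusted p = 0.0453, but 0.0666 with the replicate block), and was not called in females (-0.50, adjusted p = 0.291).

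The genes whose levels most resembled those of Adamts3 and Ccbe1 were ranked by Pearson correlation of log2 values over the 13 libraries, among 11340 genes. Libraries of the same number may be related and those of a sex form 1 series, so the libraries were not taken as independent and these are descriptions. For Adamts3 they were Ube4a (r = 0.926, Spearman's rho 0.775), Itfg1 (0.917 and 0.89) and Adam9 (0.912 and 0.736). For Ccbe1 they were Mthfsl (0.895 and 0.885), Gm2a (0.882 and 0.78) and Lyz2 (0.881 and 0.835), the last a gene of macrophages. Without the 2 libraries farthest from the median of the gene, r lay between 0.841 and 0.954 for Adamts3 and between 0.737 and 0.914 for Ccbe1.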

How the data were processed

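The authors trimmed reads with Cutadapt, quantified them with RSEM (version 1.3.1 in the submitters' processing notes, another version in the methods) on GRCm38 and normalized with limma. Strand assignment is not stated. The deposited signal is a normalized CPM per gene. Whole reads, less an offset of 0.5, were recovered for 100% of values (tolerance 0.02 reads). Positions and exon lengths came from GENCODE M21 (99.9% of identifiers matched).

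Models were fitted with limma 3.58.1 (R 4.3.3, eBayes with trend) to log2(value + 1), for genes of at least 1 in at least 3 libraries, adjusted by Benjamini-Hochberg over all genes. The male library of unsettled region entered alternatives only. Alternatives included a count test with edgeR 4.0.16. Replicates are pools, so p-values measure the spread between pools. Deviations from the group means were correlated between libraries of the same number (0.187, 0.169, 0.27, 0.427, 0.175 and 0.351 for numbers 1 to 6, over 15772 genes). Libraries of different numbers were not compared in this way, so these correlations have no reference. A block on the number was an alternative. In the regional comparisons it was a fixed term for the number. For the difference between the sexes and the comparison of the sexes it was a random effect with a correlation shared by all genes. What a number marks is not given in the sources used here.

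The genes, the lists and the tests were chosen with earlier results of these data known. Named were all 10 genes, Vegfc, Vegfd, Flt4, Vcan, Timp3, Furin, list genes called in females or over both sexes, and the 3 nearest genes of Adamts3 and Ccbe1 among those with a mean of at least 5. Other genes named were chosen after their values were seen.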

Additional observations from a re-analysis of the deposited data

Results flagged for a closer look

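In the male ventral group, the only one with 4 libraries, 3 of 53 genes had a library that stood far from the rest, where chance gives about 1 in 20. None of the 10 genes was among them. Adamts7 was at 10.3 and Adamts15 at 15.3 normalized CPM in male ventral library 6, with the other 3 at 8.41 to 8.57 and 9.64 to 10.3. Pofut2 was at 93.4 in male ventral library 4, with the other 3 at 114 to 118.

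For Col5a1, a procollagen substrate, the male regional change minus the female one was -1.49 on the log2 scale (SE 0.289, limma adjusted p = 0.0107). It was the only one of the 53 genes called without the replicate block. With the replicate block, Nrp2 (-1.35, adjusted p = 0.0317), Col1a2 (-1.96, adjusted p = 0.0347) and Col3a1 (-1.72, adjusted p = 0.0413) were called as well. Sex and the series of libraries cannot be told apart.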

How the results depend on the processing

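The number of the 10 genes called was 6 in female hearts, 0 in male hearts, 1 over both sexes, 0 for the difference between the sexes and 0 between the sexes. Of all genes, these fits called 4007 of 14411, 0 of 14917, and 2974, 431 and 1726 of 15772. With the replicate block the number of the 10 was 7, 1, 3, 0 and 0, and 4265, 76, 2234, 626 and 1684 of all genes were called. Removing the GC and length trend gave 2 in females, with and without the block, and with it 0 in males and 2 over both sexes. Of all genes, it called 3455 of 14398 in females, or 3695 with the block. With the block it called 62 of 14902 in males and 1790 of 15755 over both sexes. Over both sexes, keeping genes with a mean of 10 or more gave 3, and quantile normalization, eBayes without trend, and the unsettled library taken as dorsal or as ventral gave 2 each. Of all genes, these called 2668 of 9597, 2414 and 2516 of 15772, and 2955 and 2457 of 15870, in that order. Between the sexes, the unsettled library taken as dorsal gave 1, and 2048 of 15870 genes were called. Leaving out 1 library gave 2 to 6 in females, 0 in males, 1 to 5 over both sexes, 0 for the difference and 0 to 1 between the sexes. Of all genes, those fits called 2158 to 3845, 0 to 12, 1429 to 3646, 260 to 447 and 1303 to 1859, in that order.

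Direction was lost only by changes that were not called. With 1 library left out, Adamts1 lay between -0.24 and 0.05 in males, -0.04 and 0.13 over both sexes, and -0.05 and 0.12 between the sexes. In males Adamts5 lay between -0.05 and 0.58 and Adamts9 between -0.05 and 0.78. The difference between the sexes lay between -0.53 and 0.02 for Adamts2, -0.56 and 0.13 for Adamts4, and -0.25 and 0.60 for Ccbe1. Between the sexes, Adamts4 lay between -0.15 and 0.18, Adamts5 between -0.08 and 0.32, Adamts12 between -0.29 and 0.16, and Ccbe1 between -0.25 and 0.15. With the GC and length trend removed, the difference for Adamts2 was 0.07 (0.07 with the block), and between the sexes Adamts4 was -0.10 (-0.09 with the block), Adamts12 0.18 (0.17) and Ccbe1 0.04 (0.04). Between the sexes, Adamts12 was 0.03 with a pseudocount of 0.1 and Adamts4 was -0.04 after quantile normalization. With the unsettled library as dorsal, Adamts1 was -0.03 over both sexes, the difference for Ccbe1 was -0.16, and between the sexes Adamts12 was 0.06 and Ccbe1 0.02. The cause was not tested.

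Of the values of single genes under the alternatives, 965 kept direction and call, 28 became called, 23 lost the call and 55 changed sign. Depth limits Ccbe1, with 0 to 107 reads per library, and Adamts3, with 9 to 108. For Ccbe1, 3 of the 6 fits that left out a female library gave no value, because it no longer passed the filter. For list genes that are not among the 10, only the block was tried.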

Other observations

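The male library of unsettled region (number 7) held 56.9 normalized CPM of Adamts2, 7.74 of Adamts14, 2.8 of Adamts3 and 1.8 of Ccbe1. It held 54.3 of Adamts1, 47.9 of Adamts5, 9.75 of Adamts9 and 18.6 of Adamts10, with 8.05 of Adamts4 and 8.52 of Adamts12. Its Adamts1, Adamts4 and Adamts5 values were above those of all 7 other male libraries, and its Adamts2 value equalled the highest male dorsal one to the digits given.

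Of the pathway genes, 5 differed between the sexes over both regions, all higher in males. These were Nrp2 (log2 change 1.32, adjusted p = 0.00303), Adamtsl5 (1.04, adjusted p = 0.00762), Plat (0.79, adjusted p = 0.0401), Pofut2 (0.56, adjusted p = 0.00481) and Ctsd, which encodes the protease cathepsin D (0.41, adjusted p = 0.024). Nrp2 ranged from 79.5 to 163 in male libraries and from 22.8 to 88.4 in female ones. Of the macrophage markers, Csf1r was called higher in males (0.87, adjusted p = 0.03).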
